A study of Homo sapiens with 35 samples.

Results

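The genes described here are 9 genes of the complement system, taken by name from the gene count table: C1R, C1S, C3, CFB, CFD, CFI, CD46, CD55 and CD59. All 9 were found among the 28503 genes of the table, none carried a failure mark, and all 9 passed the filter on low counts. The study used DU145, an established human prostate cancer cell line that came from a brain metastasis. Its 35 samples comprise 6 RNA-seq libraries, analysed here, and 29 chromatin immunoprecipitation or input samples, not analysed here. The RNA-seq libraries fall into 3 groups of 2: shZMYND8, DU145 cells with a knockdown of ZMYND8, a reader protein of histone marks; shJARID1D, DU145 cells with a knockdown of JARID1D (KDM5D), a histone H3K4 demethylase; and shLuciferase, DU145 cells with a hairpin against luciferase, which serves as the control. No label says whether paired libraries of 1 group stem from different cultures, so p-values reflect the variation among these libraries alone, and that variation may be technical.

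Complement is a cascade of blood and tissue proteins that tags and lyses cells and attracts leukocytes. In the classical pathway the proteases C1r and C1s start the cascade, and in the alternative pathway factor B is cut by factor D. Both pathways meet at the cleavage of C3. Factor I, with cofactors, inactivates the cleaved forms, and the membrane proteins CD46, CD55 and CD59 protect the cell's own surface. The liver makes most plasma complement, but epithelial cells and tumour cell lines also express C1R, C1S, C3 and CFB, and interferon and inflammatory cytokines are known to induce these 4 genes.

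In shZMYND8 cells C1R, C1S, C3 and CFB rose relative to shLuciferase, with fitted folds of 2.79 to 8.04, and C3 rose the most. In shJARID1D cells C1R, C1S and C3 rose, with folds of 2.22 to 2.99, and CFB had a fold of 3.01 that did not pass the test. No member fell in either knockdown by edgeR, DESeq2 or limma voom, although CFD was lower in shZMYND8 cells at an unadjusted p under 0.05. C3 was the only one of the 9 whose difference between the knockdowns passed, 3.61-fold higher in shZMYND8 cells. None of the membrane regulators passed the test in any of the 3 comparisons, and neither did CFD or CFI.

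The promoter sequences of CFB and C1R are shown because both genes were called higher in shZMYND8 cells and have an entry in the promoter table. Entries were matched for 7 of the 9 members, with 12 windows in all, each running from 250 bases before to 50 after an annotated start. C3 and C1S had no entry and were not searched. The sequences are RefSeq's, from the human build GRCh38.p14. The submitters' notes name hg19 for their own processing, and no coordinate of that build is used here. The sequences are written in the direction of transcription, and the capitals mark matches to the cores of 3 motifs: the interferon-stimulated response element (ISRE: GAAA, any 2 bases, GAAA), the STAT element known as GAS (TTCNNNGAA) and the C/EBP site (TTGCNNAA), each searched on both strands, where N is any base. The CFB window lies on the plus strand at chr6:31945845-31946144, the first C1R window on the minus strand at chr12:7092396-7092695.
CFB: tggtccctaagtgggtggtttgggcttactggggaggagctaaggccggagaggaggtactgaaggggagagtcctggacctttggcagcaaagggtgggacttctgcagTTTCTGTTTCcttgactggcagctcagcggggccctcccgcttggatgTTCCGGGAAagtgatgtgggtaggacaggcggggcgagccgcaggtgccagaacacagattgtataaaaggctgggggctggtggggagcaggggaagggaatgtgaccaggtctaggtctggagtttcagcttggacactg
C1R: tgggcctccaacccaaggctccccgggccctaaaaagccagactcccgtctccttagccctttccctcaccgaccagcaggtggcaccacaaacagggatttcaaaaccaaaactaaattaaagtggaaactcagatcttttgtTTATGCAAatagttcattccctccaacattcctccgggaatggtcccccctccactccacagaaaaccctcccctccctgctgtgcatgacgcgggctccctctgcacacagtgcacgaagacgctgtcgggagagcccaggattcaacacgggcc

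The CFB window held an ISRE core, TTTCTGTTTC, read on the opposite strand and beginning at position -140 from the start, and a GAS core, TTCCGGGAA, beginning at -92. The ISRE core occurred in 3.57% of the 35116 promoter windows of that length, the GAS core in 7.66% and the C/EBP core in 10.5%. No other window searched held the ISRE core, and C3 and C1S had no window to search. The first C1R window held a C/EBP core, TTATGCAA, beginning at position -106. The second C1R window, on the minus strand at chr12:7091844-7092143, held a GAS core, TTCCTGGAA, at position -86 and a C/EBP core, TTGCTGAA, at -167. The CD59 windows held a GAS core in 2 of 4, which overlap and share the match. Another CD59 window held 2 C/EBP cores, TTAGGCAA, beginning at position -191, and TTGCTCAA. None of the windows for CFI, CFD, CD46 and CD55 held an ISRE, GAS or C/EBP core. An NF-kB core (GGG, any 5 bases, CC) was matched 5 times in the CFB window, but also 7 times in that of CFD and 6 times in each CD46 window. It occurs in 58.7% of all windows. Each strand was counted, so a stretch that matches on both strands counts as 2, and some other matches overlap. These matches are descriptions of letters in short windows and say nothing about binding in these cells.

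The deposited counts summed to 22925611 to 25001300 a library, and levels are counts-per-million values (CPM). A count of 3 fragments corresponded to 0.109 to 0.145 CPM, a limit that covers counting error only. ZMYND8 had 35.5 and 33.2 CPM in shZMYND8 libraries and 64.7 and 52.7 CPM in shLuciferase libraries, and fell by 0.77 ± 0.13 on the log2 scale (SE, adjusted p = 0.00491 from the quasi-likelihood test of edgeR, adjusted over all genes by Benjamini-Hochberg, as throughout). Its fall did not pass without shZMYND8 replicate 2 (adjusted p = 0.0581). KDM5D had 19.6 and 17.9 CPM in shJARID1D libraries and 58.1 and 61 CPM in shLuciferase libraries, a fall by 1.67 ± 0.12 (adjusted p = 0.000831). Summed epithelial markers (5 genes) lay at 1100 to 1222 CPM in shZMYND8, 963 to 1131 in shJARID1D and 1321 to 1862 in shLuciferase libraries. They did not move together: KRT19 averaged 207 CPM in shZMYND8, 376 in shJARID1D and 461 in shLuciferase libraries, EPCAM 6.37, 15.7 and 20.4 CPM, and CDH1 78.7, 37.2 and 38.9 CPM, in the same order. Of 6 macrophage and leukocyte markers 1 was detected well enough to be tested, and their sum lay at 1.63 to 1.97 CPM in shZMYND8, 2.19 to 2.61 in shJARID1D and 1.11 to 1.36 in shLuciferase libraries, with PTPRC at 1 fragment or fewer in each. Of 6 hepatocyte markers 2 were tested, with sums of 60.5 to 71.4 CPM in shZMYND8, 90.7 to 103 in shJARID1D and 81 to 95.6 in shLuciferase libraries, nearly all of it SERPINA1 (60.2 to 70.9 CPM in shZMYND8, 90 to 102 in shJARID1D and 80.2 to 94.8 in shLuciferase libraries). APOB and TTR were at 0 in all 6 libraries and ALB had at most 5 fragments. Of 6 stromal markers 3 were tested, with sums of 5.66 to 5.71 CPM in shZMYND8, 2.31 to 3.68 in shJARID1D and 1.41 to 2.38 in shLuciferase libraries, and DCN was at 0 throughout. The part of these markers in the results was not tested.

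C1R and C1S, the serine proteases of the C1 complex and both on chromosome 12, were higher in both knockdowns. C1R had 32.6 and 17.4 CPM in shZMYND8, 30.6 and 23.1 CPM in shJARID1D, and 11 and 6.94 CPM in shLuciferase libraries. All 4 knockdown libraries lay above both control libraries, and the 2 knockdown groups overlapped. The log2 fold change was 1.48 ± 0.30 in shZMYND8 cells (fold 2.79, adjusted p = 0.0104) and 1.58 ± 0.30 in shJARID1D cells (fold 2.99, adjusted p = 0.0219). Rises in bulk RNA cannot tell more expressing cells from more RNA per cell, here or for any gene below.

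C1S had 89.5 and 58.7 CPM in shZMYND8, 60.9 and 40.9 CPM in shJARID1D, and 25.7 and 9.77 CPM in shLuciferase libraries. Again every knockdown library exceeded both controls, and the lower shZMYND8 library lay just under the higher shJARID1D library. C1S rose by 2.06 ± 0.38 on the log2 scale in shZMYND8 cells (fold 4.18, adjusted p = 0.00665) and by 1.52 ± 0.38 in shJARID1D cells (fold 2.87, adjusted p = 0.0478). Between the knockdowns the differences of C1R, -0.10 ± 0.29 (95% interval -0.74 to 0.54), and C1S, 0.54 ± 0.36 (-0.26 to 1.35), did not pass the test (adjusted p = 0.843 for C1R and 0.338 for C1S).

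The C1R and C1S calls depended on single libraries. Without shZMYND8 replicate 1, the shZMYND8 changes were 0.95 for C1R (adjusted p = 0.0958) and 1.72 for C1S (0.0622), and without shLuciferase replicate 1 that of C1S was 2.92. In shJARID1D cells C1R lost its call without shJARID1D replicate 1 (adjusted p = 0.141) or 2 (0.0654) and without the filter on low counts. C1S lost its own under 9 of 18 alternatives, by library without shZMYND8 replicate 1 (0.0681) or 2 (0.0755), shJARID1D replicate 1 (0.249) or 2 (0.093), or shLuciferase replicate 2 (0.98, 0.0555), and without shLuciferase replicate 1 its change was 2.38.

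C3, the component on which all pathways converge, had 272 and 197 CPM in shZMYND8, 64.5 and 65.2 CPM in shJARID1D, and 39.5 and 18.8 CPM in shLuciferase libraries. The 3 groups did not overlap: both shZMYND8 libraries were far above the rest, and the 2 shJARID1D libraries lay close together above the controls. C3 rose by 3.01 ± 0.30 on the log2 scale in shZMYND8 cells (fold 8.04, adjusted p = 0.000546). The call held under all 18 alternative settings and left-out libraries, with a log2 fold change of 2.56 to 3.64, the last without shLuciferase replicate 1. In shJARID1D cells C3 rose by 1.15 ± 0.28 (fold 2.22, adjusted p = 0.046), but the call was lost under 8 of 18 alternatives, among them leaving out shZMYND8 replicate 1 (0.0667) or 2 (0.0734) or shJARID1D replicate 1 (0.184) or 2 (0.155). Without shLuciferase replicate 1 the change in shJARID1D cells was 1.79. The direct difference, shZMYND8 over shJARID1D, was 1.85 ± 0.28 (95% interval 1.22 to 2.48, fold 3.61, adjusted p = 0.00346) and passed under all 18 alternatives, at 1.60 to 2.07.

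CFB, the zymogen of the alternative-pathway convertase protease, had 71.5 and 28.6 CPM in shZMYND8, 30.5 and 17 CPM in shJARID1D, and 11.2 and 4.58 CPM in shLuciferase libraries. The knockdown libraries all lay above the controls, but the 2 shZMYND8 libraries were far apart and the lower one lay just below the higher shJARID1D library. CFB rose by 2.66 ± 0.49 on the log2 scale in shZMYND8 cells (fold 6.34, adjusted p = 0.00626). In shJARID1D cells the difference was 1.59 ± 0.48 (fold 3.01, 95% interval 0.51 to 2.67) and did not pass (adjusted p = 0.0836). Between the knockdowns it was 1.08 ± 0.45 (0.08 to 2.08, adjusted p = 0.13). The shZMYND8 call was lost without shZMYND8 replicate 1 (1.86, adjusted p = 0.0544) and the change was 3.44 without shLuciferase replicate 1. Leaving out shLuciferase replicate 1 brought the shJARID1D difference past the threshold (2.37, adjusted p = 0.0226), and without shLuciferase replicate 2 it was 1.08 (0.211). The direct difference ran from 0.27 without shZMYND8 replicate 1 (adjusted p = 0.778) to 1.59 without shZMYND8 replicate 2 (0.0777), was 0.71 without shJARID1D replicate 2 (0.466), and passed only without shLuciferase replicate 1 or 2 (0.0494 and 0.0497) among the left-out libraries.

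CFD, the protease that cleaves factor B, had 2.4 and 1.42 CPM in shZMYND8, 3.56 and 2.44 CPM in shJARID1D, and 3.36 and 4.58 CPM in shLuciferase libraries. Both shZMYND8 libraries lay below both controls, and the shJARID1D libraries overlapped with the controls. The log2 difference was -1.06 ± 0.33 in shZMYND8 cells (95% interval -1.79 to -0.32) and missed the threshold (adjusted p = 0.0562), passing only without shLuciferase replicate 1 (-1.26, adjusted p = 0.0335) among the left-out libraries. In shJARID1D cells it was -0.40 ± 0.32 (-1.11 to 0.30, adjusted p = 0.48), and between the knockdowns -0.65 ± 0.33 (-1.40 to 0.10, adjusted p = 0.213). These values rest on 37 to 107 fragments a library.

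CFI, the plasma protease that inactivates C3b and C4b, was near the limit of detection. It had 0.771 and 1.03 CPM in shZMYND8, 1.93 and 0.943 CPM in shJARID1D, and 0.937 and 0.171 CPM in shLuciferase libraries, that is 4 to 45 fragments. The lowest library was shLuciferase replicate 2, and the shZMYND8 and shLuciferase libraries overlapped. The log2 differences were 0.69 ± 0.66 in shZMYND8 cells (95% interval -0.78 to 2.17, adjusted p = 0.522) and 1.36 ± 0.63 in shJARID1D cells (-0.05 to 2.78, adjusted p = 0.228). The direct difference was -0.67 ± 0.60 (-2.0 to 0.66, adjusted p = 0.48). Single libraries moved these values. The shJARID1D difference was 3.03 without shLuciferase replicate 1 and then passed (adjusted p = 0.0284), but 0.61 without shLuciferase replicate 2 (0.537) and 0.76 without shJARID1D replicate 1 (0.721), and the shZMYND8 difference was 2.36 (0.0606) without shLuciferase replicate 1 and -0.06 (0.952) without shLuciferase replicate 2. At this depth, differences within the 95% intervals given above were not excluded.

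The membrane regulators had narrow intervals around small differences. CD46, the cofactor for factor I on the cell surface, had 258 and 238 CPM in shZMYND8, 283 and 227 CPM in shJARID1D, and 323 and 259 CPM in shLuciferase libraries. The shZMYND8 libraries lay just below the controls and the shJARID1D libraries spanned the lower control. The log2 differences were -0.23 ± 0.15 (95% interval -0.57 to 0.11, adjusted p = 0.338) in shZMYND8 cells and -0.19 ± 0.15 (-0.53 to 0.15, adjusted p = 0.49) in shJARID1D cells.

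CD55, which speeds the decay of the C3 and C5 convertases, had 55.6 and 48.6 CPM in shZMYND8, 73.7 and 63.4 CPM in shJARID1D, and 56.8 and 47 CPM in shLuciferase libraries. The shZMYND8 and control libraries overlapped, and both shJARID1D libraries lay above all others. The difference in shZMYND8 cells was 0.01 ± 0.14 (95% interval -0.31 to 0.32, adjusted p = 0.985), and that in shJARID1D cells 0.40 ± 0.14 (0.09 to 0.71, adjusted p = 0.12), which passed without shLuciferase replicate 1 (0.54, adjusted p = 0.0306). CD59, the inhibitor of the membrane attack complex, had 236 and 257 CPM in shZMYND8, 195 and 206 CPM in shJARID1D, and 213 and 225 CPM in shLuciferase libraries. Its 3 groups did not overlap, with shZMYND8 highest and shJARID1D lowest, yet the differences were small: 0.17 ± 0.11 in shZMYND8 cells (-0.09 to 0.42, adjusted p = 0.356) and -0.13 ± 0.11 in shJARID1D cells (-0.39 to 0.13, adjusted p = 0.534). Between the knockdowns CD46 differed by -0.04 ± 0.15 (-0.38 to 0.30, adjusted p = 0.883), CD55 by -0.40 ± 0.14 (-0.71 to -0.08, adjusted p = 0.0825) and CD59 by 0.30 ± 0.11 (0.04 to 0.55, adjusted p = 0.105). RefSeq places another gene over part of each: CDCA4P4 at CD46, LOC107985251 at CD55 and C11orf91 at CD59. Whether the counting used strand is not stated, so reads of such pairs cannot be told apart.

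**Figure D1:**
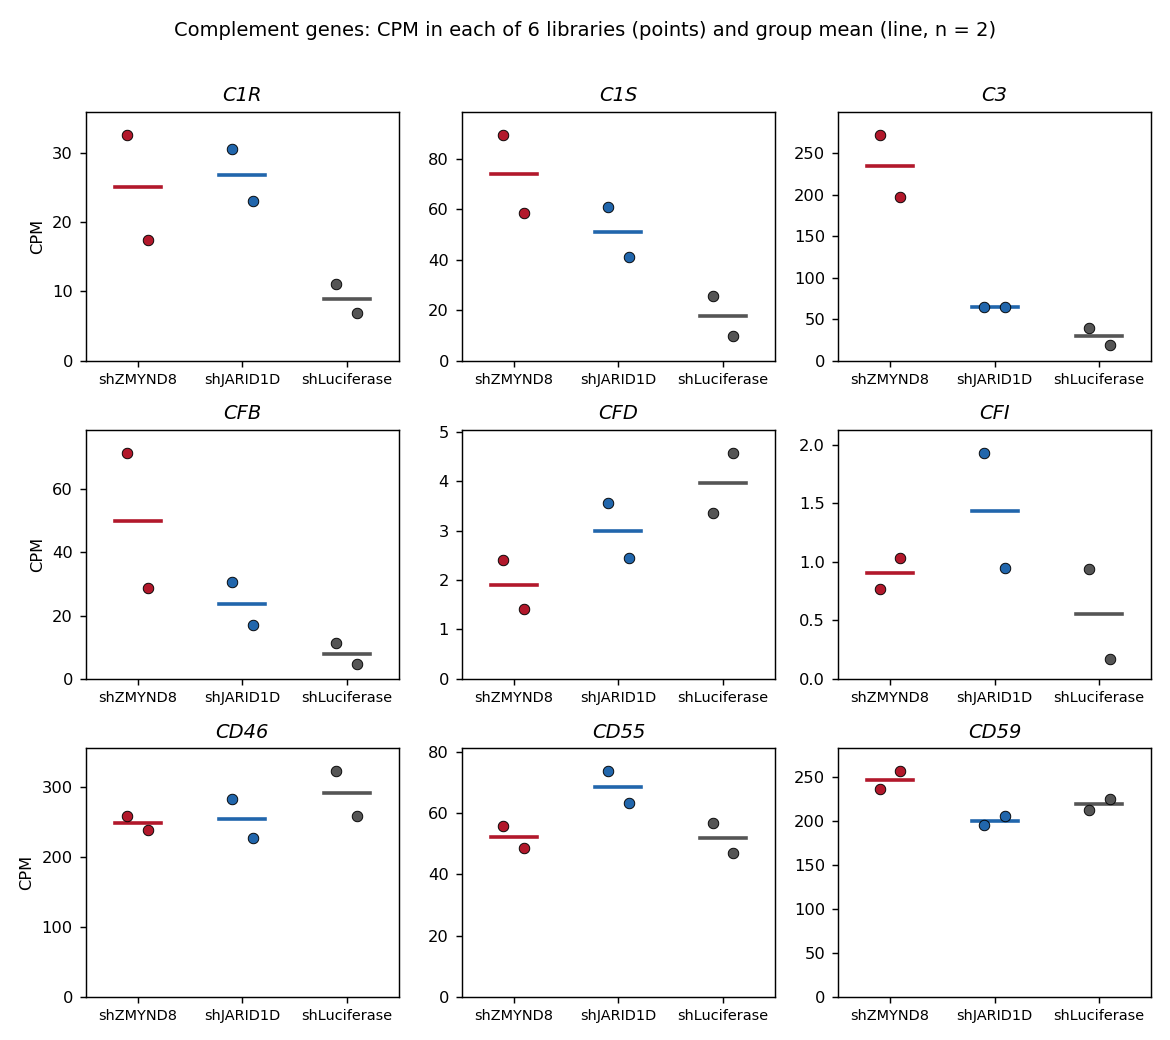
Levels of the 9 complement genes in CPM (linear axis from 0, its own scale for each gene) for shZMYND8, shJARID1D and shLuciferase libraries; points are the 2 libraries of a group and lines their mean. C1R, C1S, C3 and CFB lie higher in all knockdown libraries than in both controls, with C3 at 272 and 197 CPM in shZMYND8 against 39.5 and 18.8 CPM in shLuciferase libraries, while CD46, CD55 and CD59 differ little.

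In shZMYND8 cells 4 of the 9 genes were called higher and 0 lower, against 8.89% called higher and 7.34% called lower among the 15867 genes tested; at an unadjusted p under 0.05, 1 (CFD) was lower. Their median log2 fold change was 0.69, against -0.01 for all genes tested. The members and lists were chosen with earlier results of these data known, so such shares, medians and ranks are descriptions only, here and below. The libraries of both groups did not overlap for 7 of the 9, but this was also so for 57.8% of all genes. Without shZMYND8 replicate 1 a single member, C3, was called. Ordered by fitted rise among the 11477 tested genes that averaged 5 CPM or more, C3 ranked 18, CFB 23, C1S 49 and C1R 107.

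In shJARID1D cells 3 of the 9 were called higher and 0 lower, against 2.96% called higher and 2.79% called lower among all genes tested, and the median was 1.15 against 0.00. Here too 7 of the 9 did not overlap with the controls, against 51.9% of all genes. By fitted rise CFB ranked 24, C1R 26, C1S 31 and C3 72 among the same 11477 genes. The count was 1 without shZMYND8 replicate 1 or 2, 0 without shJARID1D replicate 1 or 2, and 6 without shLuciferase replicate 1 (C1R, C1S, C3, CFB, CFI and CD55); in the fits with 0 calls, 3 members (without replicate 1) and 6 (without replicate 2) had an unadjusted p under 0.05. On all libraries DESeq2 called 1 member (C1R) higher and 0 lower, limma voom 3 higher and 0 lower, and 0 were lower at an unadjusted p under 0.05. Both knockdowns were set against the same 2 control libraries, so their folds are not independent of each other.

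In the direct comparison, shZMYND8 over shJARID1D, 1 of the 9 (C3) was called higher and 0 lower, against 8.67% called higher and 7.02% called lower of all genes; CD55 was lower at an unadjusted p under 0.05. The median was -0.04, against 0.00 for all genes, and 4 of the 9 did not overlap, against 65.4% of all genes. The count was 3 without shLuciferase replicate 1 or 2, with C3 and CFB higher and CD55 lower in shZMYND8 cells. By fitted rise C3 ranked 19 and CFB 160.

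**Figure D2:**
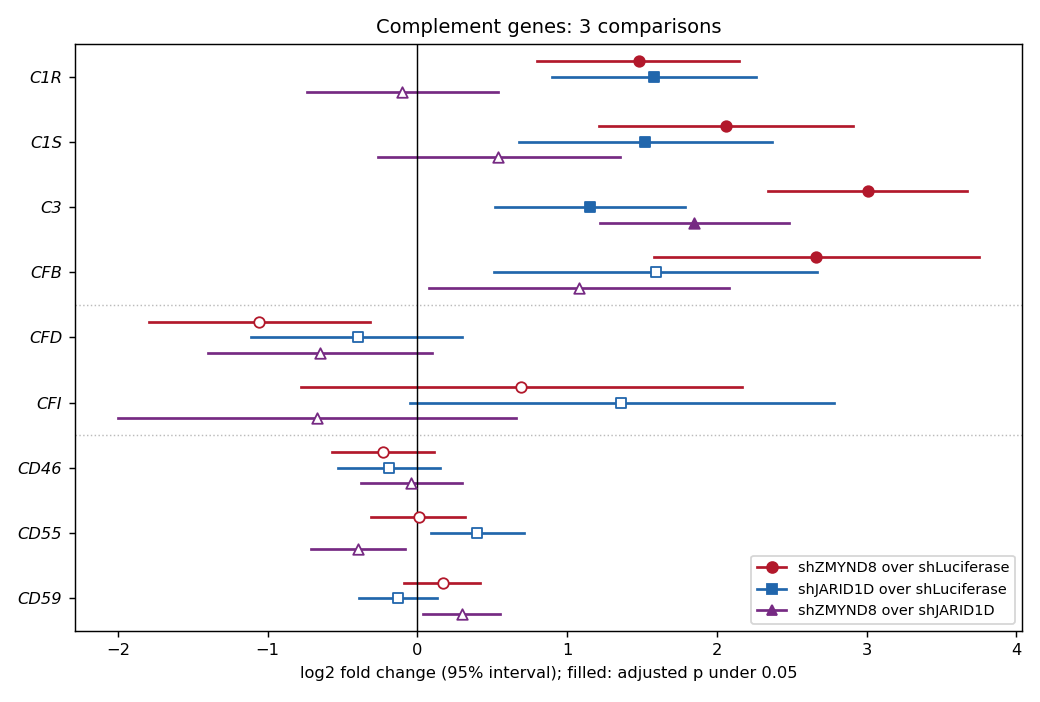
Log2 fold changes of the 9 genes with 95% intervals from the edgeR fit for shZMYND8 over shLuciferase (circles), shJARID1D over shLuciferase (squares) and shZMYND8 over shJARID1D (triangles); filled symbols passed an adjusted p of 0.05. C3 is the only gene filled in all 3, at 3.01, 1.15 and 1.85, and the symbols of CD46, CD55 and CD59 lie within 0.40 of 0.

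The 4 genes that rose also varied between libraries of 1 group. The ratio of replicate 1 to replicate 2 for CFB was 2.5 in shZMYND8, 1.8 in shJARID1D and 2.44 in shLuciferase cells. For C1R it was 1.87 in shZMYND8, 1.32 in shJARID1D and 1.58 in shLuciferase cells, and for C1S 1.53 in shZMYND8, 1.49 in shJARID1D and 2.63 in shLuciferase cells. In each group the library with more CFB also had more C1R and C1S, and this library was replicate 1 in every group. For C3 the ratio was 1.38 in shZMYND8, 0.99 in shJARID1D and 2.11 in shLuciferase cells, with the 2 shJARID1D libraries close in C3 and apart in CFB. CD59 varied little, with ratios of 0.916 in shZMYND8, 0.947 in shJARID1D and 0.946 in shLuciferase cells.

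By a fixed measure of likeness, the root mean square difference of log2 CPM after centring each gene on its mean over the 6 libraries, the nearest of 11470 other genes were named. C1R was nearest to IFITM3 (0.0695), IFI16 (0.152) and IRF9 (0.166). The nearest to C1S were SLPI (0.114), TRIM34 (0.175) and PARP9 (0.187). C3 was nearest to APOL3 (0.157), SCARA5 (0.197) and UBA7 (0.295), and CFB to SAMD9L (0.24), UBA7 (0.247) and RSAD2 (0.247). IFITM3 has near copies among which shared reads may have been divided, so its values are uncertain. The 6 points of each gene share their libraries and depths, and no test was made of the likeness.

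**Figure D3:**
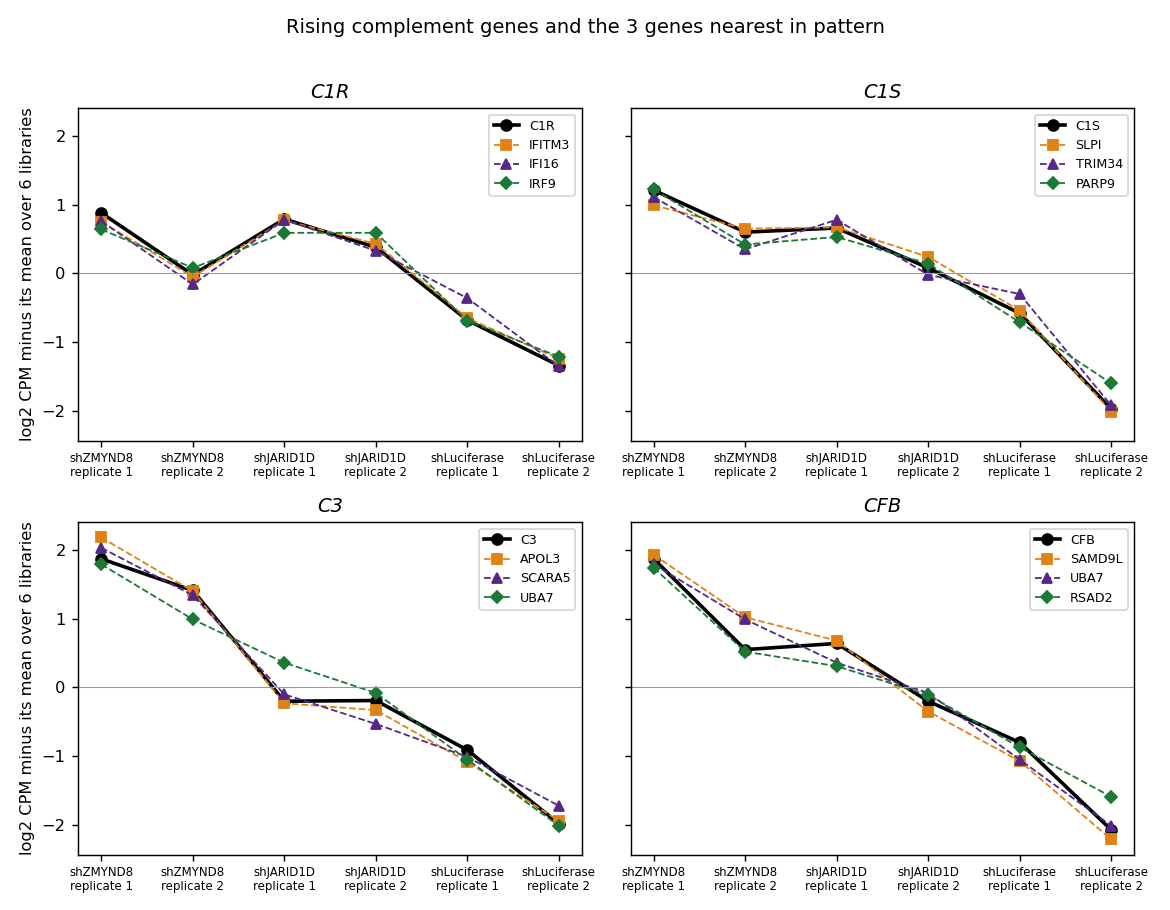
Log2 CPM minus the gene's mean over the 6 libraries (vertical axis) in each library (horizontal axis, shZMYND8, shJARID1D, then shLuciferase) for C1R, C1S, C3 and CFB in black and the 3 genes nearest to each in colour; lines only join the points of a gene. C3 stands at 1.87 and 1.41 in the shZMYND8 libraries and at -0.20 and -0.19 in the shJARID1D libraries, whereas C1R lies at -0.02 in shZMYND8 replicate 2 and 0.38 in shJARID1D replicate 2.

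The rest of the pathway was described from a list of 54 further complement genes, all present in the table. Only 18 passed the filter on low counts: 5 components, 9 regulators and 4 receptors. The 36 others reached at most 0.471 CPM in any library, and 14 of them were at 0 in all 6. They included the C1q chains C1QA, C1QB and C1QC, the terminal components C6, C7, C8A, C8B and C9, and the receptors C3AR1 and C5AR1. C4A and C4B were listed at 0 in every library, but they are near-identical copies of each other, and their counts are uncertain. Of the 18, VTN and PTX3 had 6 to 10 fragments in the shLuciferase libraries and 15 to 71 in the knockdown libraries. They passed the filter through knockdown libraries, so against the controls they could enter the counts below as rises but hardly as falls. With a mean count of at least 50 as the filter, 2 of these complement genes were called higher in shZMYND8 cells. In shZMYND8 cells 6 of the 18 were called higher and 0 lower, against 8.89% higher and 7.34% lower among all genes tested, with a median log2 fold change of 0.43 against -0.01 for all genes; 0 were lower at an unadjusted p under 0.05 or by DESeq2 or limma voom. In shJARID1D cells 2 were called higher and 0 lower (median 0.54), against 2.96% higher and 2.79% lower among all genes (median 0.00), with ITGB2 lower at an unadjusted p under 0.05 and by DESeq2. In shZMYND8 over shJARID1D cells 2 were higher and 0 lower (median -0.15), a share near the 8.67% called higher among all genes (7.02% lower, median 0.00), with 1 gene lower at an unadjusted p under 0.05 and 0 lower by DESeq2 or limma voom.

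Of the 9 regulators tested, 4 were called higher in shZMYND8 cells, against 8.89% of all genes, and 2 in shJARID1D cells, against 2.96%. CLU, clusterin, a fluid-phase inhibitor of the membrane attack complex, had 592 and 477 CPM in shZMYND8, 400 and 368 CPM in shJARID1D, and 224 and 179 CPM in shLuciferase libraries. The 3 groups did not overlap. CLU rose by 1.41 ± 0.15 in shZMYND8 cells (adjusted p = 0.000726) and by 0.93 ± 0.15 in shJARID1D cells (adjusted p = 0.0141); the first call held when any library was left out, the second was lost without shJARID1D replicate 1 (0.127) or 2 (0.0674). The direct difference was 0.48 ± 0.15 (95% interval 0.14 to 0.82, adjusted p = 0.0596), which passed without shLuciferase replicate 1 (0.0192) or 2 (0.019).

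VTN, vitronectin, which also blocks the terminal complex, was low but higher in shZMYND8 cells, with 2.74 and 2.71 CPM in shZMYND8, 0.771 and 0.729 CPM in shJARID1D, and 0.341 and 0.428 CPM in shLuciferase libraries. Both shZMYND8 libraries stood well above the other 4. VTN rose by 2.81 ± 0.36 in shZMYND8 cells (adjusted p = 0.00127) and was higher by 1.85 ± 0.33 in shZMYND8 than in shJARID1D cells (adjusted p = 0.00686). That direct call was lost when any of the 4 knockdown libraries was left out (adjusted p of 0.0509 to 0.066). In shJARID1D cells its difference from the controls was 0.95 ± 0.40 (0.05 to 1.86, adjusted p = 0.187).

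PTX3, a pattern-recognition protein that binds C1q, had 1.33 and 1.33 CPM in shZMYND8, 0.643 and 1.16 CPM in shJARID1D, and 0.383 and 0.257 CPM in shLuciferase libraries, and rose by 2.04 ± 0.48 in shZMYND8 cells (adjusted p = 0.0185). ITGAM, a chain of complement receptor CR3, had 1.37 and 1.12 CPM in shZMYND8, 1.33 and 1.46 CPM in shJARID1D, and 0.511 and 0.471 CPM in shLuciferase libraries, and rose by 1.33 ± 0.39 in shZMYND8 cells (adjusted p = 0.0435). For both genes all knockdown libraries exceeded the controls. In shJARID1D cells the differences, 1.48 ± 0.49 for PTX3 (adjusted p = 0.109) and 1.49 ± 0.38 for ITGAM (0.0512), did not pass. Leaving out a library ended the call in 3 of 6 fits for PTX3 (without shZMYND8 replicate 1 or 2, or shLuciferase replicate 2) and in 6 of 6 for ITGAM. ITGB2, the partner chain of ITGAM, had 47.7 and 44.9 CPM in shZMYND8, 31.3 and 35.4 CPM in shJARID1D, and 42.7 and 53.4 CPM in shLuciferase libraries, with both shJARID1D libraries below the rest. It was higher by 0.47 ± 0.14 in shZMYND8 than in shJARID1D cells (adjusted p = 0.0482), a call lost without any 1 of the 4 knockdown libraries (adjusted p up to 0.277), and its difference from the controls was -0.05 ± 0.14 in shZMYND8 (adjusted p = 0.831) and -0.53 ± 0.14 in shJARID1D cells (adjusted p = 0.0588). C1RL, a relative of C1R, differed by 0.57 ± 0.19 in shZMYND8 (adjusted p = 0.0707) and 0.73 ± 0.19 in shJARID1D cells (adjusted p = 0.0569). C5, the precursor of the C5a anaphylatoxin, differed by -0.14 ± 0.21 in shZMYND8 (adjusted p = 0.704) and 0.26 ± 0.20 in shJARID1D cells (adjusted p = 0.475), and C1QBP, a C1q-binding protein found mostly in mitochondria, by -0.20 ± 0.12 in shZMYND8 (adjusted p = 0.302) and -0.25 ± 0.12 in shJARID1D cells (adjusted p = 0.242).

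A list of 12 genes for transcription factors, taken as candidates for acting at complement promoters, was also read, all 12 tested. Whether their products act at these promoters was not tested. In shZMYND8 cells 8 were called higher and 0 lower, against 8.89% higher and 7.34% lower among all genes, with a median log2 fold change of 0.85. In shJARID1D cells 3 were called higher and 0 lower (median 0.62), against 2.96% higher and 2.79% lower among all genes. In shZMYND8 over shJARID1D cells 2 were higher and 0 lower (median 0.21), against 8.67% higher and 7.02% lower among all genes; DESeq2 and limma voom called 0 lower in each of the 3 comparisons, and NFKB1 was lower in the direct one at an unadjusted p under 0.05. IRF1, an interferon-induced activator, had 123 and 98.6 CPM in shZMYND8, 75.2 and 71.2 CPM in shJARID1D, and 49.6 and 43.6 CPM in shLuciferase libraries, 3 groups without overlap. IRF1 rose by 1.25 ± 0.14 in shZMYND8 (adjusted p = 0.000755) and 0.65 ± 0.14 in shJARID1D cells (adjusted p = 0.0297), and was higher by 0.60 ± 0.14 in shZMYND8 than in shJARID1D cells (adjusted p = 0.0188). With a library left out, the shZMYND8 call held in all 6 fits, the shJARID1D call was lost in 2 (adjusted p up to 0.2) and the direct call in 3 (up to 0.174).

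IRF9, a DNA-binding factor of the interferon response, rose by 1.31 ± 0.21 in shZMYND8 (adjusted p = 0.0033) and 1.52 ± 0.21 in shJARID1D cells (adjusted p = 0.00833). STAT2 rose in shZMYND8 cells by 1.09 ± 0.22 (adjusted p = 0.00951), and so did NFKB2, the precursor of an NF-kB subunit, by 1.05 ± 0.15 (adjusted p = 0.00219). In shJARID1D cells STAT2 differed by 0.83 ± 0.22 (adjusted p = 0.0555) and NFKB2 by 0.59 ± 0.15 (0.05 after rounding), which just missed the threshold and passed under 8 of 18 alternatives for STAT2 and 9 of 18 for NFKB2. Between the knockdowns STAT2 differed by 0.26 ± 0.22 (adjusted p = 0.447) and NFKB2 by 0.45 ± 0.15 (0.0658), so neither difference passed. RELB, its usual partner, rose by 0.62 ± 0.18 in shZMYND8 (adjusted p = 0.0444) and 0.86 ± 0.18 in shJARID1D cells (adjusted p = 0.029). The calls of CEBPB, an activator of acute-phase genes (0.65 ± 0.19, adjusted p = 0.0441), and CIITA, the activator of MHC class II genes (1.17 ± 0.34, adjusted p = 0.0423), were close to the threshold in shZMYND8 cells. In shJARID1D cells CIITA differed by 1.27 ± 0.34 (adjusted p = 0.0571) and CEBPB by 0.28 ± 0.19 (0.407). Leaving out a library ended the shZMYND8 call in 5 of 6 fits for RELB, 4 for CIITA, 3 for CEBPB and 1 for STAT2, and the shJARID1D call in 4 for RELB and 2 for IRF9.

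The other 4 factors did not pass in shZMYND8 cells: STAT3 at 0.30 ± 0.11 (adjusted p = 0.104), RELA at 0.26 ± 0.12 (0.17), NFKB1 at -0.02 ± 0.11 (0.939) and CEBPD at 0.02 ± 0.25 (0.968). STAT3 was higher by 0.48 ± 0.11 in shZMYND8 than in shJARID1D cells (adjusted p = 0.0223), a call lost in 4 of 6 fits with a library left out.

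**Figure D4:**
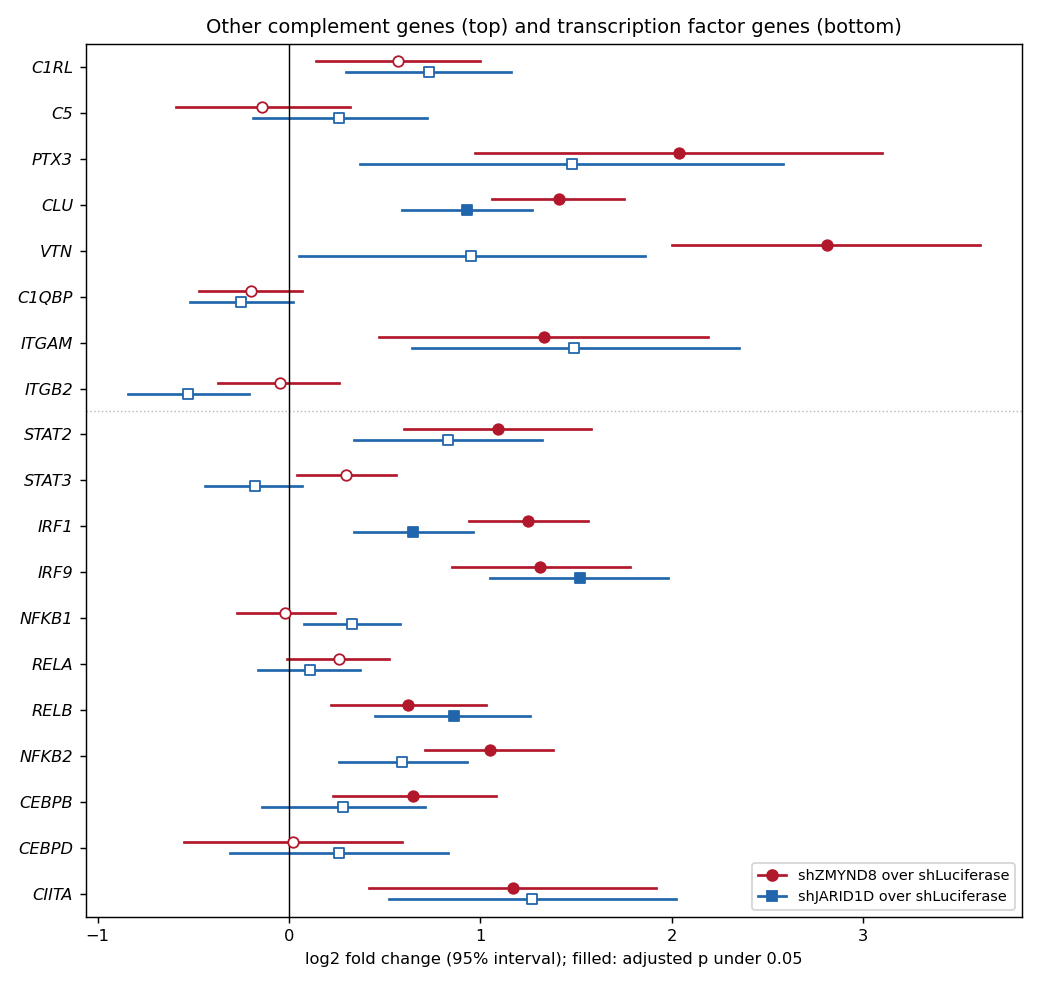
Log2 fold changes with 95% intervals from the edgeR fit for the complement genes outside the 9 (top) and the transcription factor genes (bottom) that are named one by one, for shZMYND8 over shLuciferase (circles) and shJARID1D over shLuciferase (squares); filled symbols passed an adjusted p of 0.05. CLU, IRF1, IRF9 and RELB are filled for both knockdowns, and VTN reaches 2.81 in shZMYND8 against 0.95 in shJARID1D cells.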

How the data were processed

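RNA of DU145 cells was sequenced in 6 libraries, 2 each of shZMYND8, shJARID1D and shLuciferase. Library strandedness, selection of polyadenylated RNA and gene annotation were not given in the sources used here. What the authors deposited is a Cuffdiff table of expected counts, estimates of the fragments of each gene in each library. Per the submitters' processing notes, the tools were Bowtie 1.1.2, TopHat2 2.0.12, edgeR 3.12.0 and Cuffdiff, with build hg19. Columns named Rac7_KO were taken as shZMYND8, since an antibody label gives RACK7 as another name of ZMYND8. The 18 variance columns were not used. A single fragment has a deposited value of 0.8815 to 1.16, and divided by that value, 84% to 84.9% of the counts below 1000 fragments were whole to within 0.05. Deposited totals were 22925611 to 25001300 per library.

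Counts were rounded. The 60 genes marked as not quantified were left out and the 10 marked as failed kept. The test was edgeR's quasi-likelihood F test (edgeR 4.0.16, R 4.3.3; filterByExpr, then trimmed-mean-of-M-values scaling), over 15867 genes with Benjamini-Hochberg adjustment at 0.05, without a replicate block. The 6 libraries shared 3 residual degrees of freedom, and normalization factors were 0.966 to 1.057. CPM use those factors. On simulated counts the test recovered 84% of genes changed by a log2 size of 1 and 96% at size 2 for shZMYND8 against shLuciferase (15636 genes). The changed genes averaged over 1 CPM and were given the typical spread of genes at their level. These rates need not hold for genes that are lower or vary more. Replicate libraries differed beyond counting noise, with a chi-square per gene between them of 35.2 in shLuciferase, 14.1 in shZMYND8 and 12.3 in shJARID1D. The control pair, used in both knockdown comparisons, thus differed the most. Alternatives were other scalings and filters, DESeq2 1.42.0, limma 3.58.1 (voom), fits of 2 groups, a replicate block, and leaving out each library. The members, lists and tests were chosen with earlier results of these data known. Named were all 9 members, the genes of the other lists that passed in at least 1 comparison or were tested with a mean of at least 5 CPM, both targets (some genes this rule picks are not reported here, but stay in the counts), and the 3 genes nearest in pattern to each member that passed.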

Additional observations from a re-analysis of the deposited data

How the results depend on the processing

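Of the member calls, those of C3 in shZMYND8 cells and in shZMYND8 over shJARID1D cells held under all 18 alternatives. C1R, C1S and CFB in shZMYND8 cells each lost the call in 1, the fit without shZMYND8 replicate 1. With 1 library left out, a group is left with a lone library that is assumed to vary like the others. Leaving out each library in turn, the count of members changed ran from 1 to 5 in shZMYND8, 0 to 6 in shJARID1D and 1 to 3 in shZMYND8 over shJARID1D cells. For other complement genes it ran from 2 to 6, 0 to 6 and 0 to 4, for transcription factor genes from 4 to 7, 0 to 5 and 0 to 4, and for all genes from 642 to 3222, 16 to 2145 and 551 to 4191, in the same order of comparisons.

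Same-numbered libraries of different groups deviated together only weakly over all genes (correlations of 0.0925, 0.17 and 0.0969). These values are positive and small, and they do not settle whether the numbers pair the libraries. With a replicate block the shJARID1D counts were 5 members, 6 other complement genes, 7 transcription factor genes and 2073 of all genes, and those of shZMYND8 over shJARID1D 4, 4, 6 and 3785. With the block CFD passed in shZMYND8 cells (-1.09, adjusted p = 0.0288), CFB (1.65, 0.000268) and CD55 (0.40, 0.0284) in shJARID1D cells, and CFB (1.00, 0.000595), C1S (0.54, 0.0367) and CD55 (-0.40, 0.019) in shZMYND8 over shJARID1D cells; no other member's call changed. Without a filter the shJARID1D counts in edgeR were 0 members (5 with an unadjusted p under 0.05), 1 transcription factor gene and 204 of all genes. In the same fit the shZMYND8 count was 5 transcription factor genes, and the direct counts were 1 other complement gene and 1560 of all genes. A mean count of at least 50 left 2 other complement genes in shZMYND8, 1 in shJARID1D and 1 in the direct comparison, and 5 transcription factor genes in shJARID1D. DESeq2, run with the filter on low counts, called 1 member, 4 other complement genes and 6 transcription factor genes in shJARID1D cells. With only the groups compared, shJARID1D had 1 member and 449 of all genes, and the direct comparison 2 members, 4 other complement genes, 4 transcription factor genes and 4252 of all genes. Library totals alone gave 4 other complement genes and 7 transcription factor genes in shJARID1D and 1 other complement gene directly, and upper quartile factors also gave 1 there. Keeping unquantified genes left 1 member in shJARID1D cells. The cause of these moves was not tested.

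All signs that turned belong to differences that were not called. CD55 in shZMYND8 cells was 0.00 with relative log expression factors and DESeq2, -0.01 without a filter and -0.13 to 0.14 with a library left out. NFKB1 was 0.02 with upper quartile factors or library totals, 0.00 at a mean count of at least 50 and -0.07 to 0.02 with a library left out. Left-out libraries also gave, in shZMYND8 cells, CFI at -0.06 to 2.36, C5 at -0.30 to 0.04, ITGB2 at -0.21 to 0.11, CEBPD at -0.37 to 0.36 and KDM5D at -0.11 to 0.01. In shJARID1D cells they gave C5 at -0.02 to 0.50 and CEBPD at -0.02 to 0.60. In shZMYND8 over shJARID1D cells they gave C1R at -0.63 to 0.28, CD46 at -0.20 to 0.13, C1RL at -0.35 to 0.06, C1QBP at -0.03 to 0.14, STAT2 at -0.12 to 0.56, IRF9 at -0.51 to 0.05, CEBPD at -0.63 to 0.06 and CIITA at -0.35 to 0.20. Among the 9 members CFI and CFD had the fewest fragments, 4 to 107 a library.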
